A study of Mus musculus with 20 samples.

Results

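Polyamine metabolism and Myc were followed through 10 genes, taken by symbol out of 35240 gene symbols in the deposited table: Myc, Odc1, Srm, Sms, Sat1, Amd1, Oaz1, Oaz2, Azin1 and Smox. All 10 were found, as 75 transcripts of 112994 with a symbol. They were chosen by symbol, with earlier results of these libraries known, and every level and difference of these libraries is taken as known at that choice, so the adjusted p-values below describe these libraries and carry no independent weight for the choice of genes.

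The colonoids were epithelial organoids grown in Matrigel from colonic crypts of WT (C57BL/6) mice and of Tnfr2-/- mice, of the strain B6.129S2-Tnfrsf1b tm1Mwm/J, a whole-body knockout, and so lack TNF receptor 2 in every cell type, not in the epithelium alone. Per the study's methods the mice were 8 weeks old, and per the labels the cultures of both genotypes were passaged 5 times, passed through a 70-µm mesh and collected on days 1, 2, 3, 5 and 7 post passage. There were 10 groups of genotype and day with 2 libraries each, from 2 mice per genotype. The M1 and M2 of the sample labels were read as the mouse, so each mouse gave 5 libraries, which are repeated samples and not separate animals. No agent or injury was applied in this series. Per the study's single-cell data such cultures also held Pdgfra+ fibroblasts.

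The polyamines putrescine, spermidine and spermine are small cationic molecules that bind RNA and DNA and are needed for growth and translation, and the colonic epithelium, which renews itself continuously, is one of the tissues where they are long known to matter. Ornithine decarboxylase (ODC, encoded by Odc1) makes putrescine in the committed step. Spermidine synthase (Srm) and spermine synthase (Sms) then add aminopropyl groups supplied by S-adenosylmethionine decarboxylase (Amd1). Antizymes (Oaz1, Oaz2) bind ODC and send it to the proteasome, and the antizyme inhibitor (Azin1) sequesters them. Spermidine/spermine acetyltransferase (Sat1) and spermine oxidase (Smox) run the pathway backwards. Odc1 is a textbook transcriptional target of MYC, the growth-promoting transcription factor.

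Values are TPM (transcript abundance per length, scaled to the library) divided by a size factor for each library, called normalized TPM here, a level that can be set side by side between genes. Tnfrsf1b itself was at 11.1 to 21.9 in the WT libraries and at 2.71 to 11.5 in the Tnfr2-/- libraries, so the ranges overlapped, the day 7 library of Tnfr2-/- mouse 2 lying above the day 3 library of WT mouse 1, while within each day both Tnfr2-/- mice lay below both WT mice. The summed level of 7 epithelial markers was between 11327 and 19611 in all libraries. The summed level of 9 fibroblast markers was 1233 to 3993 in the WT libraries and 3717 to 8501 in the Tnfr2-/- libraries at the late days (5 and 7), against 2087 to 4269 and 3136 to 4675 at the early days (1, 2 and 3), and none of the 9 was at 0 in any library. At the late days 2 of the 9 were called higher in Tnfr2-/- colonoids, namely Dcn by 2.74 and Vim by 1.69 on the log2 scale, where 6.45% of all genes were called. The summed level of 8 proliferation markers was 770 to 1267 early and 502 to 621 late in WT, and 672 to 989 early and 372 to 539 late in Tnfr2-/- colonoids. Of 6 immune markers, 4 had a mean under 1, among them the leukocyte marker Ptprc (0.18) and the macrophage marker Adgre1 (0.0075, at 0 in 19 libraries), and the summed level was 8.60 to 16.8 in WT and 15.5 to 45.1 in Tnfr2-/- libraries. Cd68, a lysosomal protein of macrophages, was called higher in Tnfr2-/- colonoids over all days, late and early, at 19.0 to 42.5 against 7.12 to 15.8 late, and the other tested marker, Lyz2, was not called (0.10 over all days, 0.28 late and -0.02 early). The summed level of 6 goblet cell markers was 112 to 1326 in WT and 53.3 to 177 in Tnfr2-/- libraries late, against 2.75 to 350.03 and 3.46 to 20.8 early, and 2 of the 5 tested (Fcgbp and Spdef) were called lower in Tnfr2-/- colonoids over all days, where 7.6% of all genes were called. The summed level of 6 colonocyte markers was 506 to 1425 in WT and 467 to 559 in Tnfr2-/- libraries late, against 340.2 to 644 and 388 to 459 early, and 2 of the 6 (Car1 and Car2) were called lower in Tnfr2-/- colonoids late, where 6.45% of all genes were called. The summed level of 4 stem cell markers was 66.0 to 100.4 in WT and 55.1 to 67.0 in Tnfr2-/- libraries late. The part of these cell types in the results below was not tested. In such bulk samples fewer cells of a type and less RNA per cell cannot be told apart.

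Sat1 was the most abundant of the 10 genes, with a mean of 677 normalized TPM over the 20 libraries, followed by Oaz1 at 398 and Odc1 at 283. Smox (170), Amd1 (144), Azin1 (138) and Myc (105) came next, and Srm (87.0), Oaz2 (54.9) and Sms (37.3) were the lowest. Sat1 exceeded Oaz1 in 18 of the 20 libraries and Oaz1 exceeded Odc1 in 16, while Smox exceeded Amd1 in only 11 and Amd1 exceeded Azin1 in only 11, so the order of those 3 genes was not settled by their spread. All 10 means lay between the 69.6th and 98.5th percentiles of the 13539 genes tested. Srm and Sat1 varied most, with a highest library 4.10 and 4.06 times the lowest, and Odc1 came next at 3.01. Oaz1 and Amd1 varied least, at 1.63 and 1.68.

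Between genotypes, 2 of the 10 genes were called over all 5 days (Sat1 and Oaz2, both higher in Tnfr2-/- colonoids), where 7.6% of all genes were called by limma at an adjusted p under 0.05. At the late days 2 of 10 were called (Odc1 and Sat1, both higher in Tnfr2-/-), where 6.45% of all genes were called. At the early days limma called 0 of 10, where 1.2% of all genes were called. At an unadjusted p under 0.05 there were 3 of the 10 and 1746 of all 13539 genes. The genotype difference itself changed from early to late days for 1 of 10, Odc1, where 0.148% of all genes were called. Within WT colonoids 3 of 10 changed between early and late days (Odc1 and Srm fell, Sat1 rose), against 20.1% of all genes, and within Tnfr2-/- colonoids 4 of 10 did (Myc, Srm and Sms fell, Sat1 rose), against 20.3%.  These comparisons share libraries with each other. Fits without all days of a mouse, given below, leave a single library per day in that genotype. Except in the comparison over all days, their spread then comes from the other genotype alone. Calls kept, gained or lost in those fits therefore do not measure the effect. When the libraries of each mouse were averaged first, leaving 2 mice against 2, limma called 0 of the 10 genes in each of the 6 comparisons, and an exact two-sided permutation test of 2 against 2 cannot go below p = 0.333.

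**Figure D1:**
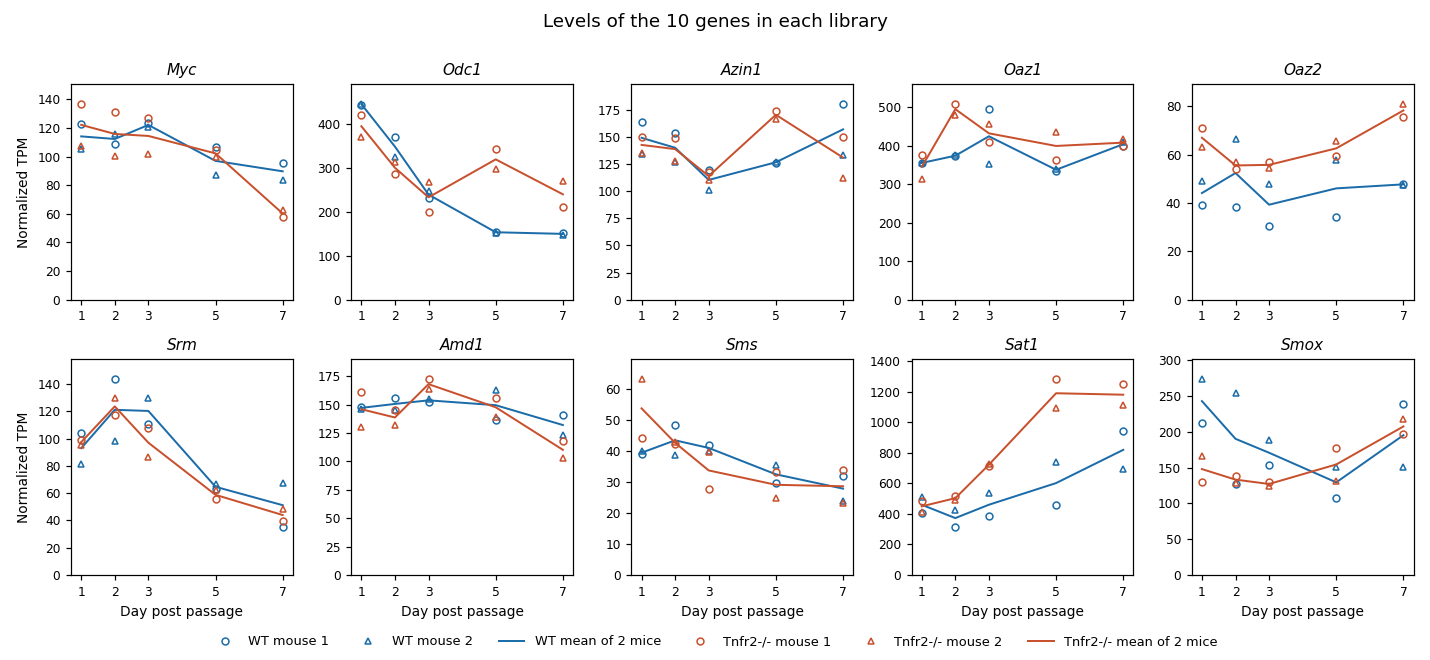
Level of each of the 10 genes in normalized TPM (y axis, from 0) against day post passage (x axis), with circles and triangles for mouse 1 and mouse 2 of each genotype and lines through the mean of 2 mice. Odc1 of WT colonoids ended near 150 on days 5 and 7 while all 4 Tnfr2-/- libraries of those days lay above 210, and Sat1 lay between 1097 and 1286 in the late Tnfr2-/- libraries.

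Odc1 lay on chromosome 12 (GRCm38, chr12:17544794-17551505, plus strand, GENCODE M21). In WT colonoids its level in mouse 1 and mouse 2 was 445 and 447 on day 1, 372 and 326 on day 2, 231 and 248 on day 3, 155 and 153 on day 5, and 152 and 148 on day 7. In Tnfr2-/- colonoids it was 421 and 370 on day 1, 288 and 314 on day 2, 199 and 268 on day 3, 343 and 297 on day 5, and 210 and 270 on day 7. On days 1 and 2 both Tnfr2-/- mice lay below both WT mice, on day 3 the genotypes overlapped, and on days 5 and 7 both Tnfr2-/- mice lay above both WT mice. The 4 late WT libraries spanned only 148 to 155, and the 4 late Tnfr2-/- libraries spanned 210 to 343 with no overlap. Non-overlap in this direction held for 5.35% of all genes.

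The mean late Odc1 level was 280 ± 55.3 (SD, n = 4) in Tnfr2-/- and 152 ± 2.75 (SD, n = 4) in WT colonoids, a ratio of 1.84. The fitted difference was 0.86 ± 0.11 (SE) on the log2(value + 1) scale, with a limma adjusted p of 7.89e-04, which placed Odc1 43rd of 13539 genes. It remained called without any single library (0.77 to 0.95), but the adjusted p was 0.0519 without Tnfr2-/- mouse 2 and 0.187 on the means per mouse. At the early days the difference was -0.15 ± 0.09 (SE, limma adjusted p 0.548). The change of the genotype difference from early to late was 1.00 ± 0.14 (SE), with a limma adjusted p of 0.0204 and a place of 5th among 13539 genes. That call was lost in 5 of 20 fits that left out 1 library, with the value between 0.91 and 1.09 and the highest adjusted p at 0.0822. These libraries were WT day 1 mouse 2, WT day 5 mouse 1, and Tnfr2-/- day 1 mouse 2, day 2 mouse 1 and day 7 mouse 2. It was also lost without each of the 4 mice (0.98 to 1.02, adjusted p 0.0625 to 0.488). The summed fibroblast markers moved in the same libraries, at the levels given above, and their part in the Odc1 difference was not tested.

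Within WT colonoids Odc1 fell by 1.13 ± 0.10 (SE) on the log2 scale from early to late days, with a limma adjusted p of 6.48e-05, the 7th smallest of 13539 genes. All 4 late WT libraries lay below all 6 early ones, a pattern found in this direction in 3.92% of all genes. Within Tnfr2-/- colonoids the same comparison gave -0.13 ± 0.10 (SE) and a limma adjusted p of 0.426, and the libraries overlapped. The ratio of the day 7 mean to the day 1 mean was 0.337 in WT and 0.608 in Tnfr2-/- colonoids.

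**Figure D2:**
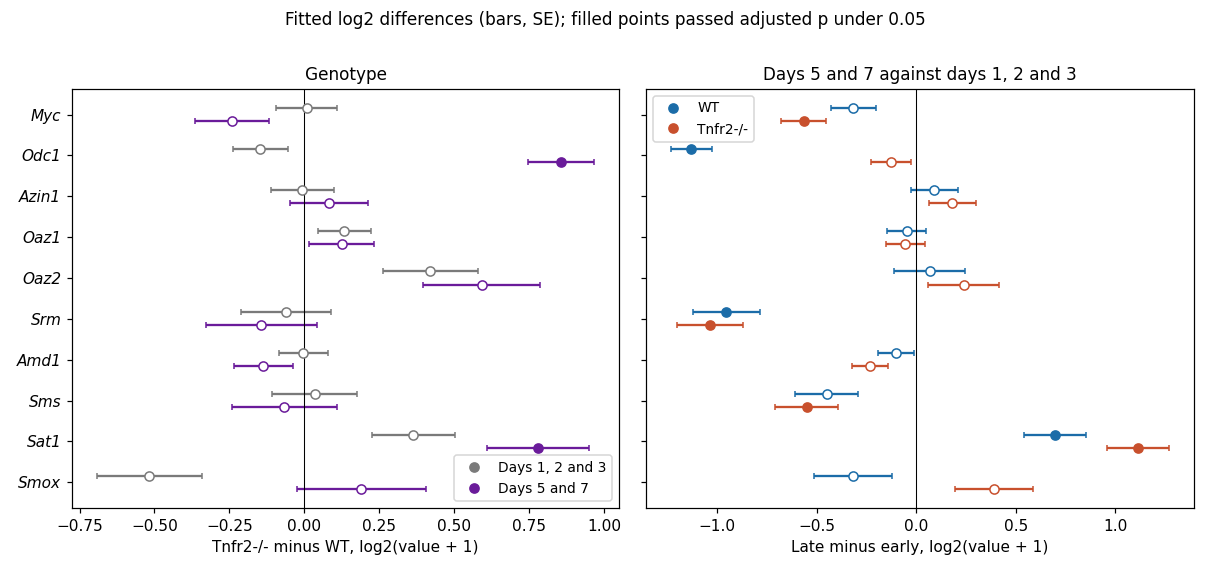
Fitted differences of the 10 genes on the log2(value + 1) scale (x axis, bars are SE), Tnfr2-/- minus WT at early and late days on the left and late minus early days in each genotype on the right, with filled points for a limma adjusted p under 0.05. On the left Odc1 (0.86) and Sat1 (0.78) were called at the late days, and on the right Odc1 fell by 1.13 in WT against -0.13, not called, in Tnfr2-/- colonoids.

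The promoters of Odc1 and Sat1 are shown because these were the members called between genotypes at the late days. RefSeq promoter windows of 300 bases (GRCm38.p6, 250 before to 50 after the start site) were at hand for 7 of the 10 genes, as 8 windows, with no entry for Myc, Srm and Azin1. The stretches upstream of the start of Odc1 (chr12:17544623-17544793, plus strand, 171 bases) and of Sat1 (chrX:155216450-155216699, minus strand, 250 bases) follow, 5′ to 3′ on the strand of the gene, with each GC box GGGCGG or its reverse complement in capitals. The Odc1 stretch ends at the GENCODE gene start, short of the RefSeq start site. The Odc1 window held 4 GC boxes, and the box beginning 15 bases before the RefSeq start site lies outside the stretch.
Odc1: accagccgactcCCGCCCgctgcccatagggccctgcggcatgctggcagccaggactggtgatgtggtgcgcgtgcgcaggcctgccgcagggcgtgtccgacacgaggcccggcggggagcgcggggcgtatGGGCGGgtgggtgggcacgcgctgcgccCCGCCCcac
Sat1: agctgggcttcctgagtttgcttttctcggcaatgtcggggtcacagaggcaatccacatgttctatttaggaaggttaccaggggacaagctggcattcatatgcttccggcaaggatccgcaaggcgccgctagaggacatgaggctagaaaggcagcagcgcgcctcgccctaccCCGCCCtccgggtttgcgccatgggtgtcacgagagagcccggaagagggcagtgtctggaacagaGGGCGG
On both strands the GC box GGGCGG was found in 6 of the 8 windows, against 35.66% of 32851 RefSeq promoters of the same length. The E-box CACGTG, the letters MYC and its partner MAX bind, was in 1 of the 8 (Sms) against 7.15% of all promoters. The cAMP response element TGACGTCA was in 0 of the 8, against 1.79% of all promoters, and an NF-kappaB pattern (3 G, 2 free positions, 3 T and 2 C) was also in 0 of the 8, against 1.63%. A match of letters is no sign of binding, and letters that are missing here may lie outside the window.

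Antizymes are read through a programmed frameshift: the ribosome meets the stop codon UGA of UCC UGA and, when polyamines are plentiful, slips forward by a base. Oaz1 varied little. In WT colonoids it was 355 and 357 on day 1, 373 and 376 on day 2, 497 and 353 on day 3, 336 and 340 on day 5, and 400 and 409 on day 7. In Tnfr2-/- colonoids it was 377 and 314, 510 and 481, 409 and 456, 362 and 437, and 399 and 418 on the same days. The ranges of the genotypes overlapped at early and at late days, and the fitted genotype difference for all 5 days was 0.13 ± 0.07 (SE, limma adjusted p 0.304).

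Oaz2 was the lower of the antizymes and differed by genotype. Its WT values were 39.2 and 49.1 on day 1, 38.2 and 66.6 on day 2, 30.7 and 48.0 on day 3, 34.2 and 58.0 on day 5, and 47.9 and 47.6 on day 7. Its Tnfr2-/- values were 70.8 and 63.2, 54.3 and 56.8, 57.0 and 54.6, 59.4 and 65.8, and 75.5 and 81.1 on those days. Both Tnfr2-/- mice lay above both WT mice on 4 of the 5 days, as they did for 3.63% of all genes, the exception being day 2, when WT mouse 2 was the highest. WT mouse 2 exceeded WT mouse 1 on 4 of 5 days. Over all days the means were 63.8 ± 9.31 (SD, n = 10) and 45.9 ± 10.9 (SD, n = 10), and the fitted difference was 0.49 ± 0.12 (SE, limma adjusted p 0.0181). Without WT mouse 1 the difference dropped to 0.24 (adjusted p 0.271), and it was also not called without either Tnfr2-/- mouse. The 4 late libraries of each genotype did not overlap, at 59.4 to 81.1 against 34.2 to 58.0, as in 5.35% of all genes in this direction. The late difference of 0.59 ± 0.20 (SE) had a limma adjusted p of 0.0924. It ran from 0.40 to 0.78 without 1 library, the highest being without WT day 5 mouse 2. Without 1 mouse it ran from 0.41 to 0.78 late and from 0.13 to 0.71 early. With all libraries the early value was 0.42 ± 0.16 (SE, limma adjusted p 0.266).

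The frameshift site is shown because the transcript models of both antizymes handle it differently, which bears on the split of their reads. Models with the site intact hold TCCT (capitals) before gatg, and others leave bases out so that the reading frame runs on.
Oaz1-205, intact: tcggtggtgcTCCTgatgtccctcacc
Oaz1-207, 1 base left out: tcggtggtgcTCCgatgtccctcacc
Oaz1-201, 4 bases left out: tcggtggtgcgatgtccctcacc
Oaz2-207, intact: tctgtggtgcTCCTgatgcccctcacc
Oaz2-206, 1 base left out: tctgtggtgcTCCgatgcccctcacc
Oaz2-201, 4 bases left out: tctgtggtgcgatgcccctcacc
Oaz1-201 held 49.98% of the Oaz1 level and Oaz1-207 16.4%. The 3 models of Oaz1 with 1 base left out ranged from 3.99 to 295 in summed level over the 6 early Tnfr2-/- libraries, and Oaz1-201 from 43.4 to 284 in the same libraries, while the whole gene kept to between 314 and 510. The split between them thus varied far more than the gene, so no value of a single Oaz1 model is read here. In addition 56.7% of the 31-base words of Oaz1-201 also occur in the pseudogene Oaz1-ps, which was listed at 0 in all 20 libraries.

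Azin1, the antizyme inhibitor, was at 101 to 180.5 in WT and 110 to 174 in Tnfr2-/- colonoids and was not called in any comparison, with differences between -0.01 and 0.18 on the log2 scale. Its values were lowest on day 3 in both genotypes, at 120 and 101 in WT and 118 and 110 in Tnfr2-/- colonoids. The ratio of Odc1 to Azin1 fell in WT from 2.71 and 3.33 on day 1 to 0.84 and 1.12 on day 7 in the 2 mice, and was 2.81 and 2.73 on day 1 and 1.41 and 2.42 on day 7 in Tnfr2-/- colonoids. The ratio of Odc1 to Oaz1 was 1.25 in both WT mice on day 1 and 0.38 and 0.36 on day 7, against 1.12 and 1.18 on day 1 and 0.53 and 0.65 on day 7 in Tnfr2-/- colonoids. Both ratios were higher in both Tnfr2-/- mice than in both WT mice on days 5 and 7. They are given as descriptions, without a test. Only 45.6% of the Azin1 level was in models annotated as protein-coding and 36.3% in retained introns, among them the leading model Azin1-209 (35.2%).

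Among the biosynthetic enzymes downstream of ODC, Srm fell late in both genotypes and limma called no genotype difference for it. Srm lies on chr4:148591503-148594993, 3.34 Mb from the deleted Tnfrsf1b. Its WT values were 104 and 81.6 on day 1, 144 and 98.3 on day 2, 110 and 130 on day 3, 62.8 and 66.4 on day 5, and 35.0 and 67.3 on day 7. Its Tnfr2-/- values were 99.3 and 95.4, 117 and 130, 108 and 86.2, 55.5 and 61.9, and 39.8 and 48.1. All late libraries lay below all early ones in each genotype, as in 3.92% of all genes in WT and 7.36% in Tnfr2-/- colonoids. From early to late days Srm fell by 0.95 ± 0.17 (SE, limma adjusted p 0.00197) in WT and by 1.04 ± 0.17 (SE, 0.00105) in Tnfr2-/- colonoids. The WT value was -1.18 without day 7 of mouse 2 and -0.72 without day 7 of mouse 1, still called in both, and the Tnfr2-/- call was lost without either Tnfr2-/- mouse (-0.89 and -1.18, adjusted p 0.205 and 0.102). The genotype difference at the late days was -0.14 ± 0.18 (SE, limma adjusted p 0.693), and lay between -0.37 without day 7 of WT mouse 1 and 0.09 without day 7 of WT mouse 2.

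Sms was at 38.7 to 48.4 in early and 23.8 to 35.4 in late WT libraries, which did not overlap, as in 3.92% of all genes. In Tnfr2-/- libraries it was at 27.8 to 63.4 early and 23.4 to 34.0 late, which overlapped. It fell by 0.55 ± 0.16 (SE, limma adjusted p 0.0264) in Tnfr2-/- colonoids, a call lost in 6 of 20 fits that left out 1 library (day 2 of mouse 1, or any 1 library of mouse 2) with an adjusted p of up to 0.133. It was lost without each of the 4 mice, and without Tnfr2-/- mouse 2 the value was -0.15. In WT the change was -0.45 ± 0.16 (SE) with a limma adjusted p of 0.0622. Reads of Sms are hard to place: 61.5% of the 31-base words of its leading transcript, Sms-204, also occur in the pseudogene Sms-ps, whose mean of 13.1 was 35.1% of that of Sms. With Sms-ps added, the WT change was -0.43 (adjusted p 0.0204), and with libraries rescaled to equal sums it was -0.53 (0.0397). The leading model Sms-204, at 72.9% of the gene, is annotated as a target of nonsense-mediated decay, and the protein-coding Sms-201 held 15.0%. The E-box in the promoter window of Sms, the only one among the 8 windows, begins 196 bases before the start site (chrX:157492466-157492495, minus strand, E-box in capitals).
Sms: cccagcggggttCACGTGcatttaaagaaa
Amd1 stayed within 123 to 163 in WT and 103 to 173 in Tnfr2-/- colonoids and was not called in any comparison. Its change from early to late days in Tnfr2-/- colonoids was -0.23 ± 0.09 (SE, limma adjusted p 0.0861). A fixed block for the mouse turned this into a call (adjusted p 0.0461), as did libraries rescaled to equal sums (-0.32, 0.0286) and leaving out Tnfr2-/- day 1 mouse 2 (-0.29, 0.0495). Of the 31-base words of Amd1-201, 92.3% also occur in other genes, Amd2 above all, although Amd2 was listed at a mean of 3.22, or 2.23% of Amd1.

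On the catabolic side, Sat1 rose late in both genotypes and was higher in Tnfr2-/- colonoids. Its WT values were 406 and 515 on day 1, 317 and 429 on day 2, 386 and 536 on day 3, 461 and 744 on day 5, and 946 and 695 on day 7. Its Tnfr2-/- values were 488 and 412 on day 1, 518 and 490 on day 2, 717 and 729 on day 3, 1286 and 1097 on day 5, and 1252 and 1113 on day 7. The genotypes overlapped on day 1, and from day 2 on both Tnfr2-/- mice lay above both WT mice. Such an order on at least 4 days was found in 3.63% of all genes. The 4 late Tnfr2-/- libraries were all above the 4 late WT libraries, as in 5.35% of all genes, and the WT spread was wide (461 to 946). All 4 late Tnfr2-/- libraries also lay above all 6 early ones, as in 9.56% of all genes.

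Over all days the mean was 810 ± 343 (SD, n = 10) in Tnfr2-/- and 544 ± 195 (SD, n = 10) in WT colonoids, with a fitted difference of 0.53 ± 0.12 (SE, limma adjusted p 0.0156). The early difference was 0.36 ± 0.14 (SE, limma adjusted p 0.267), and ran from 0.15 to 0.57 without 1 mouse. Late means were 1187 ± 95.9 and 712 ± 199 (SD, n = 4 each), a ratio of 1.67, with a difference of 0.78 ± 0.17 (SE, limma adjusted p 0.0170). The late call was lost without WT day 5 mouse 1 (0.61, adjusted p 0.0789), WT day 7 mouse 2 (0.67, 0.0527), Tnfr2-/- day 5 mouse 1 (0.72, 0.0666) or Tnfr2-/- day 7 mouse 1 (0.74, 0.0631), and without either Tnfr2-/- mouse. The call over all days was kept without any single library and lost without WT mouse 1 (0.38, adjusted p 0.0894) or either Tnfr2-/- mouse. From early to late days Sat1 rose by 0.70 ± 0.15 (SE, limma adjusted p 0.00718) in WT and by 1.11 ± 0.15 (SE, 3.88e-04) in Tnfr2-/- colonoids. Both calls were lost without either Tnfr2-/- mouse, where the WT rise stayed at 0.70 and the Tnfr2-/- rise was 1.06 or 1.16. With all libraries the difference between the rises was 0.42 ± 0.22 (SE) with a limma adjusted p of 0.486. The ratio of Sat1 to Odc1 went from 0.91 and 1.15 on day 1 to 6.22 and 4.69 on day 7 in the WT mice, and from 1.16 and 1.11 to 5.95 and 4.12 in the Tnfr2-/- mice. The mean fibroblast marker sum was 3635 early and 2581 late in WT and 3978 early and 6301 late in Tnfr2-/- colonoids, and its part in the changes of Sat1 was not tested.

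Smox, the oxidase, was at 212 and 274 on day 1 in WT and 130 and 166 in Tnfr2-/- colonoids, and at 239 and 151 against 197 and 217 on day 7. WT values on day 2 were far apart, at 126 and 254. At the early days the difference was -0.52 ± 0.17 (SE), with an unadjusted limma p of 0.0106 and a limma adjusted p of 0.209. Without 1 mouse this early difference ran from -0.80 to -0.24. Late it was 0.19 ± 0.21 (SE, limma adjusted p 0.646), and 0.027 to 0.354 without 1 library. The change of the difference, 0.71 ± 0.28 (SE), had a limma adjusted p of 0.330. From early to late days Smox was at -0.32 ± 0.20 (SE, limma adjusted p 0.279) in WT and 0.39 ± 0.20 (SE, 0.184) in Tnfr2-/- colonoids. The WT value was -0.63 without WT mouse 1 and 0.0018 without WT mouse 2. Without either WT mouse the Tnfr2-/- value stayed at 0.39, and only its p-value changed.

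Myc (chr15:61985391-61990374, plus strand) was at 123 and 105 on day 1, 109 and 116 on day 2, 123 and 121 on day 3, 107 and 87.4 on day 5, and 95.7 and 83.6 on day 7 in WT colonoids. In Tnfr2-/- colonoids it was 137 and 107, 131 and 101, 127 and 102, 105 and 99.5, and 57.7 and 62.7. Tnfr2-/- mouse 1 exceeded mouse 2 on 4 of 5 days, and the day 7 libraries of Tnfr2-/- colonoids were the lowest of all 20. Day 7 was the only day on which the genotypes did not overlap for Myc. From early to late days Myc fell by 0.57 ± 0.11 (SE, limma adjusted p 0.00377) in Tnfr2-/- colonoids, a call kept without any single library and lost without Tnfr2-/- mouse 1 (-0.38, adjusted p 0.277) or mouse 2 (-0.75, 0.0755). In WT the change was -0.32 ± 0.11 (SE) with a limma adjusted p of 0.0639, or 0.042 once the mouse was blocked as a correlation and 0.030 once it was blocked as a fixed term. It was also called with libraries rescaled to equal sums (-0.39, adjusted p 0.0183) or by median ratios (-0.33, 0.0472). The genotype difference was -0.24 ± 0.12 (SE, limma adjusted p 0.265) at the late days and 0.01 ± 0.10 (SE, 0.989) at the early days. The change of that difference was -0.25 ± 0.16 (SE) with a limma adjusted p of 0.572. By qPCR of a further cohort, the study reported Myc and Mki67 as higher in Tnfr2-/- colonoids. Here Myc was not called between genotypes, and the reason for this difference between the assays was not tested. The ratio of Odc1 to Myc fell from 3.62 and 4.25 on day 1 to 1.59 and 1.77 on day 7 in WT and was 3.07 and 3.45 on day 1 and 3.65 and 4.31 on day 7 in Tnfr2-/- colonoids.

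Genes of MYC programs were read from lists chosen with earlier results known. Of 32 MYC target genes of ribosome biogenesis and growth, all tested, 18 fell and 3 rose from early to late days in WT (median -0.44) and 26 fell and 1 rose in Tnfr2-/- colonoids (median -0.63), beside medians over all genes of 0.02 in both and calls in 20.1% and 20.3% of all genes. In WT the largest falls were Rrp9 (-0.90), Nop58 (-0.81) and Ddx18 (-0.75), factors of ribosome assembly, while Hk2, a hexokinase, rose by 0.92. In Tnfr2-/- colonoids Cad, an enzyme of pyrimidine synthesis, fell by 1.11 and the nucleolar factors Nop56 and Nolc1 fell by 1.01 each. At the late days 7 of the 32 were lower and 0 higher in Tnfr2-/- than in WT colonoids (median -0.26, all genes -0.05, with 6.45% of all genes called), among them Ccnd2 (-0.85), a cyclin, Polr1b (-0.83), a subunit of RNA polymerase I, Rrp12 (-0.69) and Tfrc (-0.65), the transferrin receptor. The late count of 7 was 4 with no filter on low values and 0 without either Tnfr2-/- mouse, and it was 2 or 3 without WT day 5 mouse 1, WT day 7 mouse 2 or any 1 of the late Tnfr2-/- libraries. The WT count of 21 calls from early to late days was 11 without day 7 of mouse 1, 5 without all days of mouse 1 and 10 without either Tnfr2-/- mouse, and the Tnfr2-/- count of 27 was 0 without either Tnfr2-/- mouse. Proliferation markers, named above, were lower late in both genotypes, 7 of 8 being called in each, and their part in the fall of these lists was not tested.

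Of 13 genes of the MYC network, 4 rose and 0 fell from early to late days in each genotype, where 20.1% (WT) and 20.3% (Tnfr2-/-) of all genes were called. The WT count was 2 without day 5 of WT mouse 1 or either Tnfr2-/- mouse, and the Tnfr2-/- count was 0 without either Tnfr2-/- mouse. Mycn, the paralog of Myc, rose by 1.69 in WT and by 1.22 in Tnfr2-/- colonoids but stayed low, at 0.39 to 8.30 and 2.5 to 11.8. Mxi1 (0.84 and 0.87) and Mxd1 (0.62 and 1.17), which compete with MYC for MAX, rose in both. Between genotypes 2 of the 13 were higher (Mycn by 0.66, Mxi1 by 0.38) and 1 lower (Mxd4, -0.62) in Tnfr2-/- colonoids over all days, where 7.6% of all genes were called, and all 3 calls were lost without either Tnfr2-/- mouse, that of Mxd4 also in 6 of 20 fits without 1 library. At the early days 1 was higher, Mycn by 0.85, where 1.2% of all genes were called, and this call was lost in 11 of 20 fits without 1 library. Late 1 of the 13 was called, where 6.45% of all genes were, namely Mxd4, lower in Tnfr2-/- colonoids by 1.06 on the log2 scale, at 6.06 to 11.1 against 9.84 to 26.3. The late call of Mxd4 was lost without WT day 5 mouse 1, WT day 7 mouse 2, Tnfr2-/- day 5 mouse 1 or Tnfr2-/- day 7 mouse 2.

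**Figure D3:**
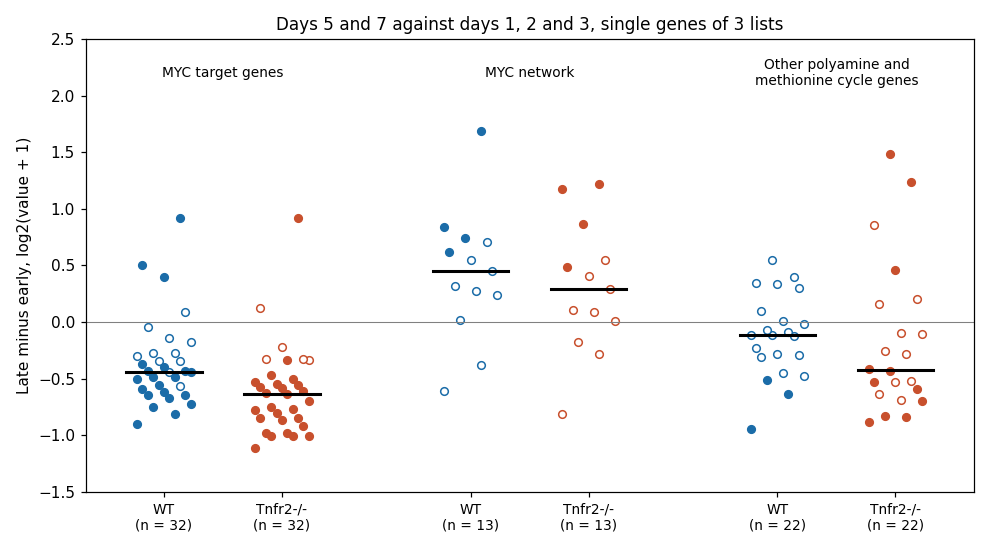
Late minus early difference on the log2(value + 1) scale (y axis) for each tested gene of 3 lists in WT and Tnfr2-/- colonoids (x axis), with filled points for a limma adjusted p under 0.05 and bars at the medians. Most of the 32 MYC target genes lay below 0, with medians of -0.44 in WT and -0.63 in Tnfr2-/- colonoids, while the medians of the 13 network genes lay above 0.

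Of 25 further genes of polyamine transport, hypusine synthesis, arginine supply and the methionine cycle, 22 had a mean of at least 1 and were tested. Between genotypes at the late days 1 was higher and 1 lower in Tnfr2-/- colonoids, where 6.45% of all genes were called. Slc7a2, a transporter of arginine and ornithine, was higher by 2.04 late, by 1.15 early and by 1.5 over all days (limma adjusted p 8.39e-05), yet low, at 2.77 to 12.5 against 0.39 to 3.04 in WT. Ahcy, which clears S-adenosylhomocysteine, was lower late by 0.72 on the log2 scale. From early to late days 3 fell and 0 rose in WT, namely Apip (-0.95), Mtap (-0.64) and Eif5a (-0.51), where 20.1% of all genes were called. The count was 1 without day 1 of WT mouse 2, all days of WT mouse 1, or either Tnfr2-/- mouse. Apip and Mtap belong to the pathway that recovers methionine from the by-product of Srm and Sms, and Eif5a is the protein that spermidine modifies to hypusine. In Tnfr2-/- colonoids 8 fell and 3 rose, where 20.3% of all genes were called. Mtap (-0.88) and Ahcy (-0.84) were among the falls, and Arg2 (1.48), the largest change, and Slc7a2 (1.23) among the rises. The count of 11 calls in Tnfr2-/- colonoids was 5 to 7 without any 1 of 7 Tnfr2-/- libraries (mouse 1 on days 1, 2, 3, 5 and 7, mouse 2 on days 1 and 7) and 0 without either Tnfr2-/- mouse. On the means of each mouse limma called 0 genes of these 3 lists in each comparison.

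At the transcript level, 63 of the 75 transcripts had a mean of at least 1 and were tested among 38609. Over all days 1 of the 63 was called between genotypes, against 0.715% of all transcripts: Sat1-201, the protein-coding model that held 77.3% of Sat1, was higher in Tnfr2-/- colonoids by 0.62 ± 0.14 (SE, limma adjusted p 0.0419), and the count of calls was 0 in 15 of 20 fits without 1 library. Its late values were 865 to 1035 in Tnfr2-/- and 336 to 717 in WT colonoids. From early to late days 7 of 63 were called in WT, against 3.41% of all transcripts, and 7 of 63 in Tnfr2-/- colonoids, against 3.34%. In WT Odc1-201, the protein-coding model with 72.2% of the gene, fell by 0.97 ± 0.09 (SE, limma adjusted p 4.75e-04). Its late values were 106 to 136 in WT and 169 to 228 in Tnfr2-/- colonoids.

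The model Odc1-204, annotated as a retained intron, was at 8.54 to 89.7 in early WT libraries and at 1.10 or less in all 4 late ones, while late Tnfr2-/- values were 53.7 and 14.0 on day 5 and near 0 and 55.3 on day 7 in mouse 1 and mouse 2. Odc1-201 shares 52.0% of its 31-base words with other genes, and those in the table had a summed mean of 2.66, or 0.94% of Odc1. Myc-201 and Myc-205 have identical sequences of 2338 bases and identical values, so 2 of the 7 calls in Tnfr2-/- colonoids are the same measurement. They fell by 0.97 on the log2 scale in Tnfr2-/- colonoids (limma adjusted p 0.00857). Srm-201 fell by 1.25 in Tnfr2-/- colonoids and by 0.85 in WT. In WT the Sat1 models called were Sat1-203, Sat1-205 and Sat1-206, all annotated as retained introns, and all rose. The protein-coding Sat1-201 was not called in WT (0.63, limma adjusted p 0.0553). In Tnfr2-/- colonoids Sat1-201 (1.14, limma adjusted p 0.00332), Sat1-205 and Sat1-206 rose. The other calls were Odc1-204 and Odc1-205, which fell in WT, and Smox-208, which was at 0 in most libraries and rose in Tnfr2-/- colonoids.

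**Figure D4:**
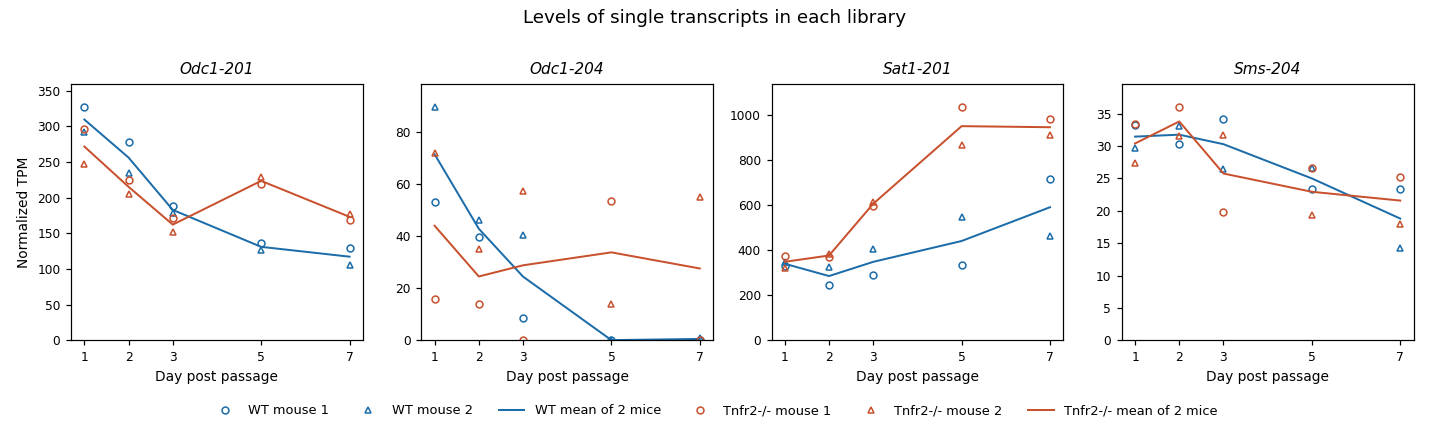
Level of 4 transcript models in normalized TPM (y axis, from 0) against day post passage (x axis), with circles and triangles for mouse 1 and mouse 2 and lines through their mean. The protein-coding Odc1-201 ran from 106 to 136 in late WT and 169 to 228 in late Tnfr2-/- libraries, while Odc1-204 scattered between the mice, from near 0 to 89.7.

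The genes whose level followed a member most closely over the 20 libraries are given as a description, since the libraries come from 4 mice and share their days. Myc was followed most closely by Kmt5a (Pearson r of log2 values 0.90), Nop10 (0.87) and Adarb2 (0.86). Odc1 was followed by Mrfap1 (0.86), Cdc5l (0.86), Dusp5 (0.85), Fosl1 (0.85) and Cebpd (0.84). Srm was followed by Eif5a (0.95), Pa2g4 (0.95) and Dnph1 (0.94), and Sat1 by Tnfrsf11b (0.97), Arhgef3 (0.94) and Dusp4 (0.94). Among the members themselves Srm and Sat1 were the most opposed (-0.80) and Myc and Amd1 the most alike (0.75), with Myc and Srm at 0.72 and Myc and Odc1 at 0.37.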

How the data were processed

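RNA of mouse colonoid cultures was sequenced as stranded mRNA with single-end reads of 75 bases. The authors' processing notes name CASAVA, kallisto, sleuth and mm10. The deposited values have the unit signal here: they are TPM that the authors divided by a size factor for each library, one value per transcript. Library sums were 900655 to 1111080, read depth is not in the table, and so no counting interval is given and the number of libraries limits the precision. The deposited table also holds the authors' test statistics and p-values, which were not used.

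Repeated transcript lines (781 of 113974) were dropped and values summed per gene symbol. Genes (13539) and transcripts (38609) with a mean of at least 1 were fitted on the log2(value + 1) scale by limma (version 3.58.1, R version 4.3.3), using its trend option. Benjamini-Hochberg adjustment ran over all of them, and an adjusted p under 0.05 was called. Fold changes on this scale understate those of low genes. The difference over all days had day and genotype as terms, and the other comparisons were contrasts of 10 group means. Count models were not used since the values are not counts. Tables and plots were made with Python 3.11.15, pandas 2.3.3, numpy 2.4.6 and matplotlib 3.10.9. The fit was also run on simulated data with independent libraries and no mouse effect, which cannot check for repeated samples of a mouse.

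The members and lists were chosen with earlier results of these data known. All 10 members are named whatever their result. For each list and comparison the called genes with the largest change, up to 4, were picked out, and only some of these are named. The 5 genes most like Myc, Odc1, Srm and Sat1 were computed, of which the first 3 to 5 are named. Libraries with the same genotype and M number come from 1 mouse by the reading of the labels. Deviations from the group means correlated at 0.0997 to 0.307 between days of a WT mouse and at -0.0511 to 0.0800 between days of a Tnfr2-/- mouse. Since days of a mouse were fitted as separate libraries, p-values measure the spread between libraries and not between animals. Alternatives were other pseudocounts, filters and scalings, no trend, sums per gene identifier or with similar genes, replicate blocks, means per mouse, and leaving out libraries or mice.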

Additional observations from a re-analysis of the deposited data

Results flagged for a closer look

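A library was set apart where its gap to the nearest of its group, divided by the range of the group, passed Dixon's 95% critical value. For independent draws from a single population, chance sets apart about 1 in 20 groups, or 5%. Of the 40 groups checked (each member in each genotype at early or late days), 5 were set apart. These groups pool days and repeated samples of 2 mice, so this count cannot be set against 5%. Srm at the late days in WT colonoids was lowest in mouse 1 on day 7, at 35.04 normalized TPM against 62.8 to 67.3 in the others. Azin1 was highest in the same library, at 180.5 against 126 to 133 in the other late WT libraries. Sms at the early days in WT was highest in mouse 1 on day 2, at 48.36 against 38.7 to 42.0. Oaz1 at the early days in WT was highest in mouse 1 on day 3, at 497 against 353 to 376. Smox at the early days in Tnfr2-/- colonoids was highest in mouse 2 on day 1, at 166 against 124 to 138.

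The genotype difference of Odc1 was not the same at early and late days, by a test of the change itself: it was 1.00 higher late on the log2 scale (limma adjusted p 0.0204), with the limits given beside it above.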

How the results depend on the processing

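Over all alternatives that kept single libraries, the counts of members called stayed within 1.5 times the main count, except that rescaling the libraries to equal sums gave 5 calls in place of 3 from early to late days in WT. Means per mouse gave 0 calls over all days, at the late days, for the change of the genotype difference, and from early to late days in WT and in Tnfr2-/- colonoids. Leaving out libraries or mice gave 0 to 2 calls over all days, 0 to 3 late, 0 to 2 early, 0 to 1 for the change, 2 to 4 in WT and 0 to 4 in Tnfr2-/- colonoids, and 0 to 3, 1 to 8 and 0 to 8 transcripts over all days, in WT and in Tnfr2-/- colonoids.

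With the mouse as a replicate block, Myc from early to late days in WT had a limma adjusted p of 0.042 (correlated) or 0.030 (fixed), and Amd1 in Tnfr2-/- colonoids 0.0461 (fixed). The replicate number as a block gave 0.0424 for Oaz2 at the late days, but mice of different genotypes share only that number (correlation of deviations -0.0536 to 0.0761), so it is no pairing.

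Some differences that the main analysis did not call changed sign. Myc early was -0.0619 rescaled. Sms over all days was 0.0098 with median-ratio rescaling, 0.143 with Sms-ps and 0.142 with every similar gene, an alternative chosen after seeing the data. Sms late was 0.125 and 0.119 with those sums, and Sms early -0.034 rescaled. Amd1 early was 0.0094 with median-ratio rescaling and 0.0031 with similar genes. Oaz2 in WT was -0.010 and Azin1 over all days -0.043 rescaled, and Azin1 early 0.0071 with median-ratio rescaling. Without 1 library or mouse, Myc ran from -0.193 to 0.0082 over all days and -0.167 to 0.182 early. Srm ran from -0.393 to 0.107 late, -0.170 to 0.049 early and -0.442 to 0.277 for the change. Sms ran from -0.073 to 0.050 over all days, -0.296 to 0.163 late, -0.139 to 0.206 early and -0.503 to 0.302 for the change. Amd1 ran from -0.146 to 0.031 over all days and -0.092 to 0.084 early. Oaz1 ran from -0.124 to 0.108 for the change, -0.139 to 0.044 in WT and -0.172 to 0.060 in Tnfr2-/- colonoids. Oaz2 ran from -0.016 to 0.357 for the change and -0.119 to 0.253 in WT. Azin1 ran from -0.094 to 0.153 over all days, -0.037 to 0.203 late, -0.141 to 0.128 early, -0.020 to 0.199 for the change and -0.018 to 0.200 in WT. Smox in WT ran from -0.635, which was called, to 0.0018. The cause was not tested.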
